A study of Anser cygnoides with 6 samples.

Results

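Antisense exonic lncRNAs are long non-coding RNAs that overlap exons of a known gene but are read from the opposite strand. They were taken as the transcripts with class code x in the deposited lncRNA table, and 478 of its 14993 transcripts (3.19%) had this code. The table names the gene on the other strand, and the question asked here was how the change of each antisense lncRNA between proliferation and differentiation stood beside the change of that gene. The cells were wild-type primary myoblasts of the Shitou goose (Anser cygnoides), the precursor cells of skeletal muscle fibers, and per the methods they came from embryos whose cells were mixed. The 3 GM cultures were in the proliferation stage in medium with 15% fetal bovine serum. The 3 DM cultures were in the differentiation stage after a change to 2% horse serum, for which the labels give 2 to 4 days. Each culture gave 1 library, so n = 3 for each stage. Per the methods all cultures were split from the mixed cells, so the p-values measure only the spread between these cultures and not between animals.

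Antisense RNA can act on the gene it overlaps in several known ways, by colliding polymerases, by pairing with the sense RNA, or by drawing chromatin factors to the locus, and many antisense RNAs have no known effect. During myogenesis, myoblasts leave the cell cycle and fuse into myotubes that build sarcomeres, the contractile units in which myosin heavy chains form the thick filament. Antisense transcription at myosin heavy chain genes is known from rodent heart and muscle. The libraries were made with a strand-specific kit, but the strand setting used in counting was not given in the sources used here. If strand was ignored, reads of a gene and of its antisense partner over shared exons could not be told apart.

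FPKM is the number of fragments scaled by transcript length and by the fragments mapped in the library. The study gives read totals for each library, but counts per transcript were not analysed here, so the number of reads under a single value is unknown. A value of 0 is listed as 0.0001 FPKM. The fold change was the DM over GM difference of log2(FPKM + 1), which understates the change of low transcripts. A transcript or gene was called at a Benjamini-Hochberg adjusted p under 0.05 in limma, over all rows of its table with a mean of at least 0.5 FPKM, together with a log2 fold change beyond 1 in either direction. In the gene table the summed FPKM of 7 measured myoblast and myotube markers was 173 to 183 in GM and 137 to 148 in DM. Of these, PAX7, MYF5 and MYOD1 were down-regulated and MYH15 was up-regulated. MYOG, ACTA1 and TNNT3 were not called, with log2 fold changes of -0.45, -0.24 and 0.47. The summed FPKM of 6 measured fibroblast and connective tissue markers was 1526 to 1556 in GM and 3416 to 3684 in DM, and 4 of the 5 tested were up-regulated. The markers of endothelium, cartilage, fat, blood, nerve and epidermis each summed to under 10 FPKM in every library, and some of them moved as well. PPARG of the fat list was down-regulated (log2 fold change -1.41), TP63 of the epidermis list was up-regulated (1.16, from 0.621 to 1.97 FPKM in GM and 3.71 to 3.91 FPKM in DM), and the endothelial sum was 2.39 to 2.71 FPKM in GM and 1.28 to 1.39 FPKM in DM. These markers and those of fibroblasts moved with the stage and therefore with every result below, and their part in these results was not tested. In bulk RNA, fewer cells of a type and less RNA per cell cannot be told apart.

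The 478 antisense lncRNAs lay opposite 400 gene names, of which 52 had more than 1 transcript, and they fell into 416 loci. A locus here holds only transcripts with the same gene name and overlapping spans. Strands were even, with 245 transcripts on the plus strand and 233 on the minus strand. Most were spliced. Of the 478, 417 (87.2%) had more than 1 exon, against 25.5% of all lncRNAs in the table, and 334 had 2 exons. This is not particular to the class. Of the lncRNAs sharing a junction with a known gene, and of those overlapping exons in sense, 100% had more than 1 exon. In both of these classes 0% lacked a strand. Over all lncRNAs, 88.3% of the single-exon transcripts carried no strand, whereas 0 of the antisense lncRNAs lacked one. A transcript without a strand cannot be placed opposite a gene, so it could not enter the class. The median length was 857 bases (quartiles 374 and 1789) and the longest measured 16797 bases. A FPKM above 0.0001 was found in all 6 libraries for 376 transcripts and in 0 libraries for 5.

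The antisense lncRNAs were low in level. The median of their mean FPKM was 1.55, against 0.942 over all lncRNAs, and 37 reached a mean of 10 FPKM. The median was 1.34 for lncRNAs sharing a junction with a known gene and 1.37 for those overlapping exons in sense. Of the 478, 418 passed the filter and were tested, and 60 were not. Among the tested, the median FPKM was 1.81 to 2.05 in the GM libraries and 1.56 to 1.78 in the DM libraries. Their median log2 fold change was -0.12. Over all tested lncRNAs it was -0.22, a general shift towards lower values in DM, and over all tested genes it was -0.03.

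Of the 418 tested antisense lncRNAs, 26 were called between the stages (6.22%), where 2.01% of all tested lncRNAs were called. Of these, 10 were up-regulated and 16 down-regulated in DM, against 0.562% and 1.45% of all tested lncRNAs. The GM and DM values did not overlap in any of the 26. The selection by adjusted p and fold used the same values, so this separation adds no support to a call. Non-overlap was found in 148 of the 418 tested (35.4%), close to the 32.3% of all tested lncRNAs. With a mean of at least 2 FPKM, 19 of 188 antisense lncRNAs were called, against 5.67% of all lncRNAs at that level. The direction of the calls depended on the scaling. With each table scaled to a common median the calls were 16 up-regulated and 11 down-regulated, and after quantile normalization 13 and 11, with 21 of the 26 calls shared in each case. The common median moved the whole lncRNA table, whose median log2 fold change went from -0.22 to 0.0021. The shares of all lncRNAs called in each direction under these scalings were not computed. The number called also depended on single libraries, since it was 12 without GM_1, 14 without GM_2, 12 without GM_3 and 13 without DM_2. Over the 6 fits that each left out 1 library, 10 of the 26 were called every time, and all 26 kept their sign.

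**Figure D1:**
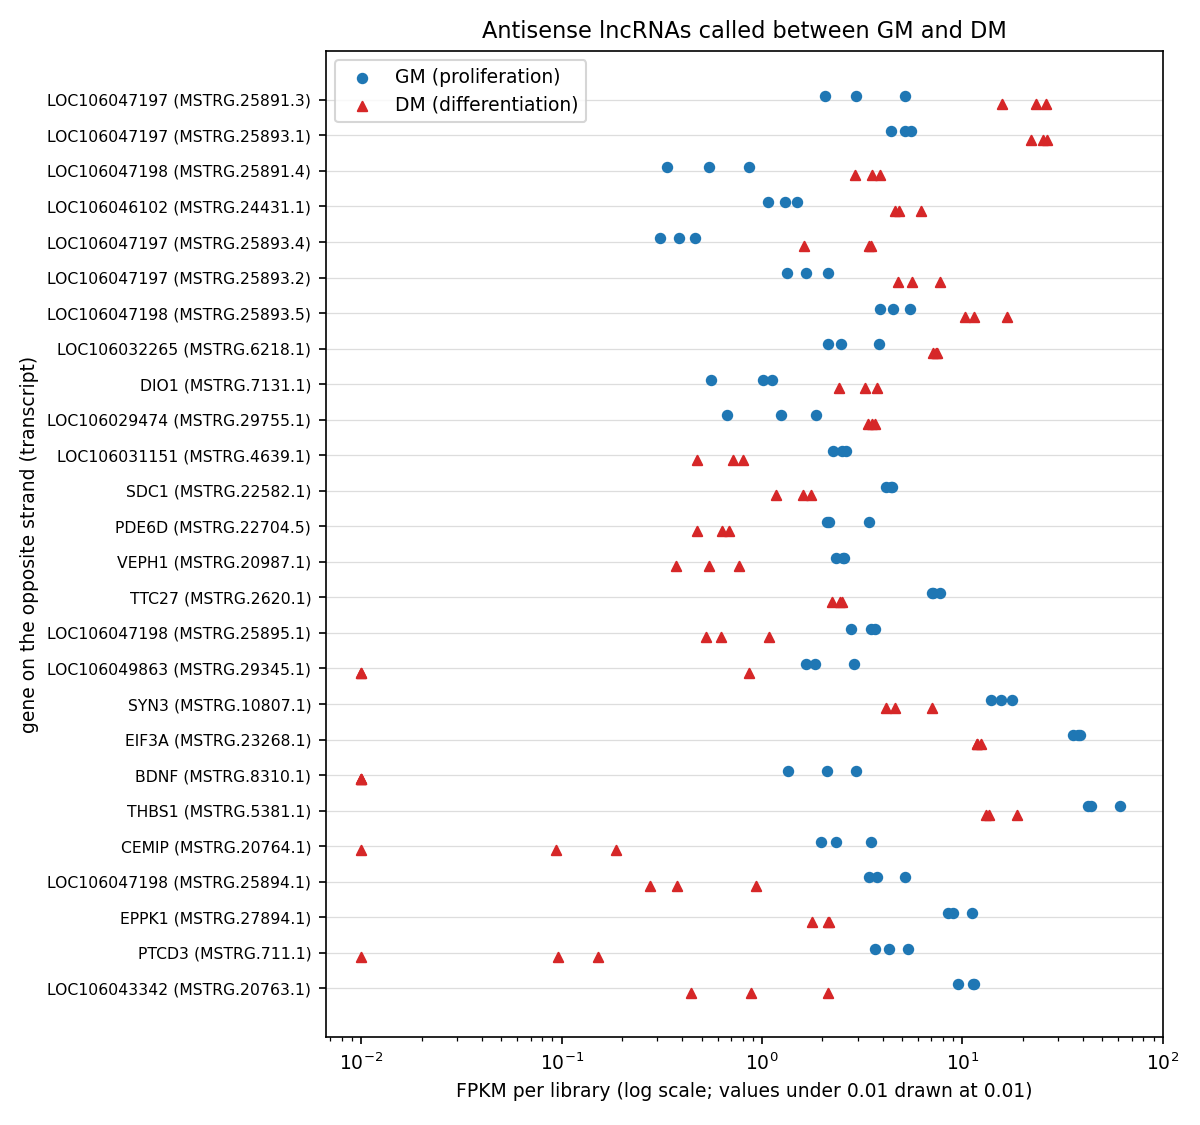
FPKM in each library (x axis, log scale) of the 26 called antisense lncRNAs (y axis, gene on the opposite strand with the transcript in brackets), sorted by log2 fold change, with circles for the 3 GM libraries and triangles for the 3 DM libraries. Values under 0.01 FPKM are drawn at 0.01 and can lie on top of each other, and in every row the circles and triangles do not overlap.

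Of the 10 up-regulated antisense lncRNAs, 6 lay at the myosin heavy chain genes. A group of 18 antisense lncRNAs, chosen after its values were seen, lay on the minus strand of scaffold NW_013185901.1 between 410065 and 660827 in the coordinates of the deposited table, a stretch of 250.763 kb. They were assigned to LOC106047195, LOC106047197 and LOC106047198, which the gene table holds in 1 joined row of 8 symbols annotated with myosin heavy chains of skeletal muscle. Of the 16 tested, 6 were up-regulated, 2 were down-regulated and 8 were not called. Over all tested lncRNAs, 0.562% were up-regulated and 1.45% down-regulated. Several of the 16 are transcripts of the same assembled gene, so they do not count as independent members. Without these 18 transcripts, 18 antisense lncRNAs were called in all.

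MSTRG.25893.1, opposite LOC106047197, had 5.56, 4.39 and 5.16 FPKM in the GM libraries and 26.4, 25.2 and 21.9 FPKM in the DM libraries. All DM values lay far above all GM values, with a log2 fold change of 2.08 ± 0.15 (SE, n = 3 for each stage, limma adjusted p = 0.0016), and it was called whichever library was left out. MSTRG.25891.3, opposite the same gene, had 2.95, 2.05 and 5.15 FPKM in GM and 26.1, 23.2 and 15.8 FPKM in DM. Its log2 fold change was 2.41 ± 0.29 (SE), with a limma adjusted p of 0.0087, and it was not called without GM_1 (adjusted p = 0.051). The other 4 up-regulated transcripts were lower, with log2 fold changes from 1.27 for MSTRG.25893.5 to 1.50 for MSTRG.25891.4. MSTRG.25891.4 was not called without GM_3 (limma adjusted p = 0.054), and MSTRG.25893.2, MSTRG.25893.4 and MSTRG.25893.5 were each called in 1 or 2 of the 6 fits that left out a library.

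Within the same stretch, MSTRG.25894.1 moved the other way. It had 5.19, 3.75 and 3.41 FPKM in GM and 0.932, 0.379 and 0.277 FPKM in DM. The stages did not overlap, and the log2 fold change was -1.75 ± 0.22 (SE, limma adjusted p = 0.0098). MSTRG.25895.1 was also down-regulated, with a log2 fold change of -1.31 (limma adjusted p = 0.014), a call that was lost without GM_1, GM_2, GM_3 or DM_2. The long transcripts MSTRG.25891.1 and MSTRG.25891.2, which span most of the stretch, had log2 fold changes of -0.55 and -0.62 and were not called. Several of the transcripts overlap each other, so the share of reads given to each depends on the assembly. With the transcripts of a locus summed, the locus opposite LOC106047197 was up-regulated, and no locus opposite LOC106047198 was called in either direction. This split follows the gene names. MSTRG.25893.1 and MSTRG.25893.5, numbered as transcripts of the same assembled gene, were summed in different loci because they name different genes. Summed over the 18, the level was 42.5, 39.7 and 49.2 FPKM in the GM libraries and 106, 89.8 and 74.8 FPKM in the DM libraries, with every DM library above every GM library.

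The joined row of the myosin heavy chain genes had 13.2, 14.6 and 13.8 FPKM in GM and 32.4, 28.2 and 23.9 FPKM in DM. It was higher in every DM library, with a log2 fold change of 0.96 (limma adjusted p = 0.0022), just short of the fold limit. Because the row joins several genes, TMEM220 among them, it does not show which gene changed, or that it was a myosin heavy chain. The RefSeq gene table of another goose assembly was used only for names, order and overlap of gene spans. It lists a lncRNA gene, LOC125184268, whose span holds 3 of the genes in the joined row.

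**Figure D2:**
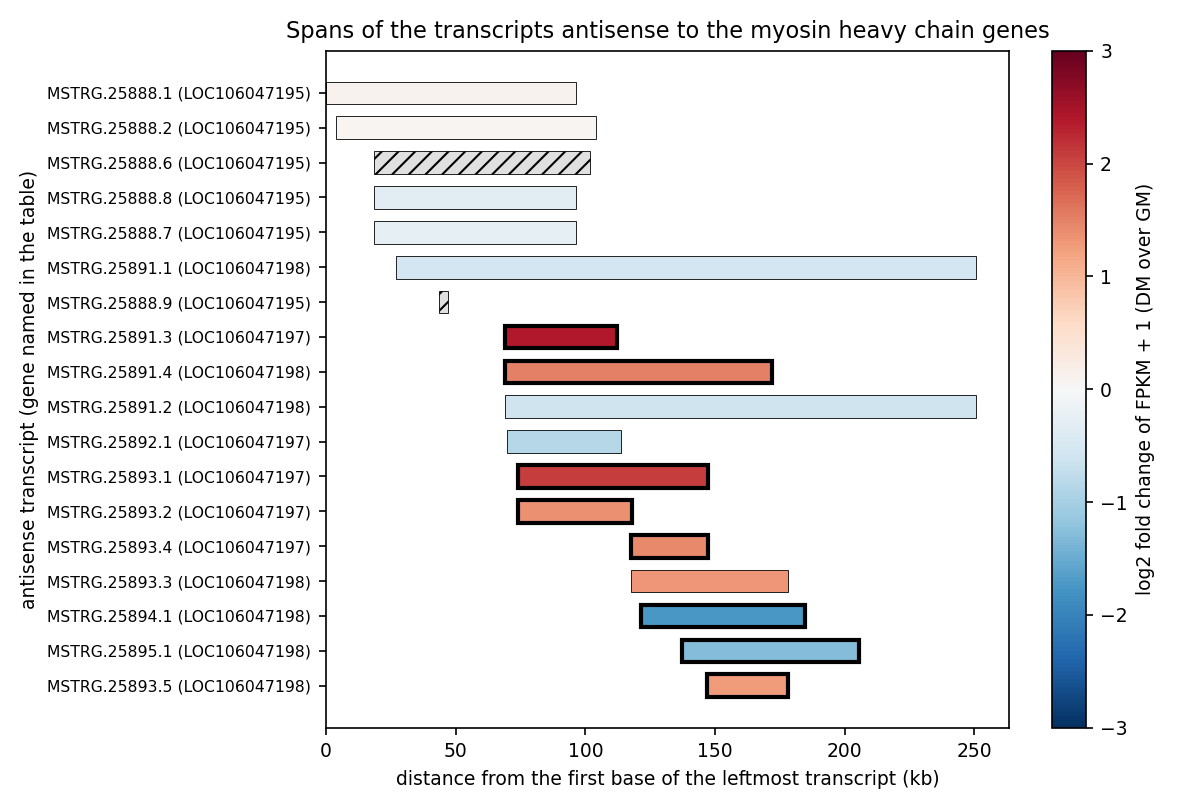
Spans of the 18 transcripts antisense to the myosin heavy chain genes, as distance in kb from the first base of the leftmost transcript (x axis), 1 transcript to a row. Color is the log2 fold change (red higher in DM, blue lower), thick outlines mark the 6 up-regulated and 2 down-regulated transcripts, and hatching marks the 2 that were not tested.

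The other up-regulated antisense lncRNAs were single transcripts. MSTRG.24431.1, opposite LOC106046102, had 1.08, 1.31 and 1.49 FPKM in GM and 6.21, 4.63 and 4.81 FPKM in DM. No values overlapped, the log2 fold change was 1.43 (limma adjusted p = 0.0083), and it was called whichever library was left out. MSTRG.6218.1, opposite LOC106032265, had a log2 fold change of 1.15 (limma adjusted p = 0.022) and was called without GM_1 but in none of the other fits that left out a library. The genes of both were not analysed here. MSTRG.7131.1, opposite DIO1, a deiodinase that acts on thyroid hormone, and MSTRG.29755.1, opposite LOC106029474, a gene annotated as a zinc finger protein, were also up-regulated, at 1.13 and 1.04 on the log2 scale, and are named after their values were seen. The call of MSTRG.29755.1 was lost whichever library was left out, and that of MSTRG.7131.1 in 5 of the 6 fits.

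Among the down-regulated antisense lncRNAs, the largest fall in log2 fold change was at the CEMIP locus on scaffold NW_013185798.1. CEMIP binds hyaluronan and takes part in its breakdown. MSTRG.20763.1, minus strand, 568947 to 580496, opposite LOC106043342, had 9.48, 11.3 and 11.4 FPKM in GM and 2.14, 0.881 and 0.442 FPKM in DM. Its log2 fold change was -2.52 ± 0.27 (SE, limma adjusted p = 0.0060). MSTRG.20764.1, opposite CEMIP itself, had 3.49, 2.33 and 1.96 FPKM in GM and 0.0937, 0.187 and 0.0001 FPKM in DM, and its log2 fold change was -1.70 (limma adjusted p = 0.0087). The joined row of CEMIP and LOC106043342 had 15.7, 12.6 and 15.1 FPKM in GM and 3.17, 1.93 and 1.19 FPKM in DM. It was down-regulated, which does not show which of the genes it joins changed. In the RefSeq gene table of the other goose assembly, CEMIP and LOC106043342 are protein-coding genes that overlap each other, and no strand is given. Whether a transcript opposite either gene lies on the strand of the other was not tested. A further transcript at the locus, MSTRG.20761.1, had 1.42, 1.06 and 0.871 FPKM in GM and 1.28, 0.673 and 0.732 FPKM in DM, and these values overlapped.

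The most strongly down-regulated antisense lncRNA with a gene in a row of its own was MSTRG.711.1. It lies on the plus strand of scaffold NW_013185655.1 from 1435346 to 1438639, opposite PTCD3, a protein of the mitochondrial ribosome. This transcript had 5.36, 3.68 and 4.29 FPKM in GM and 0.0961, 0.0001 and 0.151 FPKM in DM, at or near 0 in every DM library. The log2 fold change was -2.32 ± 0.17 (SE, limma adjusted p = 0.0016). PTCD3 itself had 10.2, 10.8 and 10.3 FPKM in GM and 6.95, 8.25 and 8.01 FPKM in DM, a log2 fold change of -0.39. MSTRG.23268.1 lies on the minus strand of scaffold NW_013185844.1 from 512206 to 518316, opposite EIF3A, a subunit of a translation initiation factor. It had 35.7, 37.6 and 38.7 FPKM in GM and 12.4, 11.8 and 11.8 FPKM in DM, with no overlap and a log2 fold change of -1.56 ± 0.14 (SE, limma adjusted p = 0.0026). EIF3A had 34.3, 39.9 and 35.8 FPKM in GM and 27.2, 28.3 and 31.0 FPKM in DM, a log2 fold change of -0.34. The antisense lncRNA was thus at the level of its gene in GM (102% of the gene) and below it in DM (41.6%).

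MSTRG.27894.1 lies opposite EPPK1, a plakin that links cytoskeletal filaments. It had 8.45, 8.97 and 11.2 FPKM in GM and 2.12, 1.78 and 2.15 FPKM in DM, with a log2 fold change of -1.80 (limma adjusted p = 0.0026). EPPK1 was lower than its antisense lncRNA in all 6 libraries, at a mean of 1.21 FPKM in GM and 0.183 FPKM in DM. MSTRG.2620.1, opposite TTC27, had 7.03, 7.77 and 7.15 FPKM in GM and 2.50, 2.23 and 2.45 FPKM in DM, a log2 fold change of -1.29 (limma adjusted p = 0.0057). The transcripts of PTCD3, EIF3A, EPPK1 and TTC27 were called whichever library was left out. Named after their values were seen, the transcripts opposite VEPH1, PDE6D, LOC106031151 and LOC106049863 had log2 fold changes from -1.06 to -1.32, and each was called in 1 or 2 of the 6 fits that left out a library. Among them, PDE6D is a carrier of prenylated proteins. MSTRG.8310.1, opposite the neurotrophin gene BDNF, had 2.94, 1.34 and 2.11 FPKM in GM and was listed at 0.0001 in all 3 DM libraries, so that no fold is given. It was not called without GM_1, GM_3 or DM_2. BDNF itself was at a mean of 1.43 FPKM in GM and 0.287 FPKM in DM. In human, an antisense RNA of BDNF is well known.

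The gene on the other strand had a row of its own for 361 of the 478 antisense lncRNAs, which gave 314 genes. A further 69 antisense lncRNAs had their gene in one of 41 joined rows, and the genes of 48 were not analysed here. Of the 299 partner genes tested, 9 were called (3.01%), against 4.02% of all tested genes, with 2 up-regulated (2.18% of all tested genes) and 7 down-regulated (1.84%). With no limit on the fold, 99 partner genes passed the adjusted p, against 30.3% of all tested genes. The median log2 fold change of the partner genes was -0.04.

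Both the antisense lncRNA and its gene were called in 3 of the 300 tested pairs. The share of such pairs over all lncRNA classes was not computed. THBS1 encodes thrombospondin-1, a glycoprotein of the matrix, and had 1740, 1666 and 1757 FPKM in GM and 420, 400.5 and 441 FPKM in DM, a log2 fold change of -2.03. Its antisense lncRNA MSTRG.5381.1 had 43.9, 61.1 and 42.1 FPKM in GM and 18.8, 13.2 and 13.5 FPKM in DM, a log2 fold change of -1.63 (limma adjusted p = 0.011). SYN3 encodes a synapsin of synaptic vesicles, and its antisense lncRNA MSTRG.10807.1 had 17.7, 13.9 and 15.7 FPKM in GM and 7.02, 4.59 and 4.16 FPKM in DM, above SYN3 in every library. The log2 fold changes were -1.44 for the antisense lncRNA (limma adjusted p = 0.014) and -1.23 for SYN3. In the RefSeq table of the other assembly, the span of SYN3 also holds TIMP3 besides a lncRNA gene. SDC1 encodes syndecan-1, a cell surface proteoglycan, and its antisense lncRNA MSTRG.22582.1 had 4.40, 4.44 and 4.16 FPKM in GM and 1.60, 1.75 and 1.18 FPKM in DM. The log2 fold changes were -1.09 for the antisense lncRNA (limma adjusted p = 0.015) and -1.12 for SDC1. The antisense call at THBS1 held whichever library was left out, that at SYN3 was lost without GM_1, GM_2, GM_3 or DM_2, and that at SDC1 held only without DM_1. The call at SDC1 was also lost after quantile normalization (log2 fold change -0.92) and with scaling to a common median (-0.87). A limma fit with the replicate number as a block lost the calls at SDC1 (adjusted p = 0.051) and THBS1 (0.054) and kept that at SYN3 (0.040).

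In other pairs the gene was called and the antisense lncRNA was not. GPC3, a glypican of the cell surface, rose from a mean of 0.721 FPKM in GM to 4.57 FPKM in DM, a log2 fold change of 1.70. Its antisense lncRNA MSTRG.12831.2 had 0.740, 0.0001 and 1.40 FPKM in GM and 0.0001, 4.09 and 3.19 FPKM in DM, and the stages overlapped. RBMS1, an RNA-binding protein, was up-regulated with a log2 fold change of 1.20. Its antisense lncRNA MSTRG.2926.1 had 6.51, 4.21 and 3.69 FPKM in GM and 9.87, 7.09 and 0.0603 FPKM in DM, so that DM_3 stood apart from DM_1 and DM_2. Without DM_3 its log2 fold change was 0.72 in place of -0.33. TENM3, a teneurin of the cell surface, and ZCCHC9, a zinc finger protein, were down-regulated with log2 fold changes of -1.08 and -1.05. The call of ZCCHC9 (limma adjusted p = 0.048) was lost without DM_1, where its log2 fold change was -0.68, and without DM_3, GM_1, GM_2 or GM_3, where the adjusted p was 0.074 to 0.12. It was also lost with no filter and with a pseudocount of 0.1, whereas that of TENM3 held in each of these fits. Their antisense lncRNAs had log2 fold changes of -0.50 and -0.45 and overlapped between stages.

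To test whether an antisense lncRNA and its gene changed by different amounts, the difference of their log2(FPKM + 1) within each library was compared between stages. The values of both come from the same libraries, so their changes are given side by side and no agreement between them is counted. Of 300 pairs with both members above the filter, on 266 genes, 0 were called by limma, against 0.021% of 4771 pairs of all lncRNA classes. At an unadjusted p under 0.05, 40 pairs differed (13.3%), against 14.0% of all pairs, and 10 of these were past the fold limit, against 2.87%. The smallest adjusted p was 0.068, for PTCD3, where the antisense lncRNA fell by more than its gene, with a difference of -1.93 (95% interval -2.45 to -1.41). For EIF3A the difference was -1.22 (95% interval -1.58 to -0.87, limma adjusted p = 0.076). With a mean of at least 2 FPKM these 2 pairs were called, both at an adjusted p of 0.039. The antisense lncRNA of PTCD3 passes that filter only through its GM values, so its call there is no separate support. The share of all pairs called at that filter was not computed.

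A pair that was not called is not shown to move together. The 95% interval of the difference had a median half-width of 0.61, and it lay inside -1 to 1 in 167 of the 300 pairs. For SDC1 the difference was 0.02 (95% interval -0.56 to 0.60), for SYN3 -0.21 (-0.48 to 0.07) and for THBS1 0.40 (-0.31 to 1.11). Adding 1 FPKM understates the change of the lower member of a pair more, so these differences depend on the pseudocount. With a pseudocount of 0.1 they were -0.34 for SDC1 and 0.0093 for SYN3. With partners in joined rows added, a choice made after seeing the data, 4 pairs were called against 0.177% of all pairs, each at an adjusted p of 0.047. They were PTCD3, MSTRG.20761.1 at the CEMIP locus (difference 2.20), and MSTRG.25894.1 and MSTRG.25891.2 at the myosin heavy chain genes (differences -2.71 and -1.59). The joined row fell at CEMIP and was higher in DM at the myosin heavy chain genes.

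**Figure D3:**
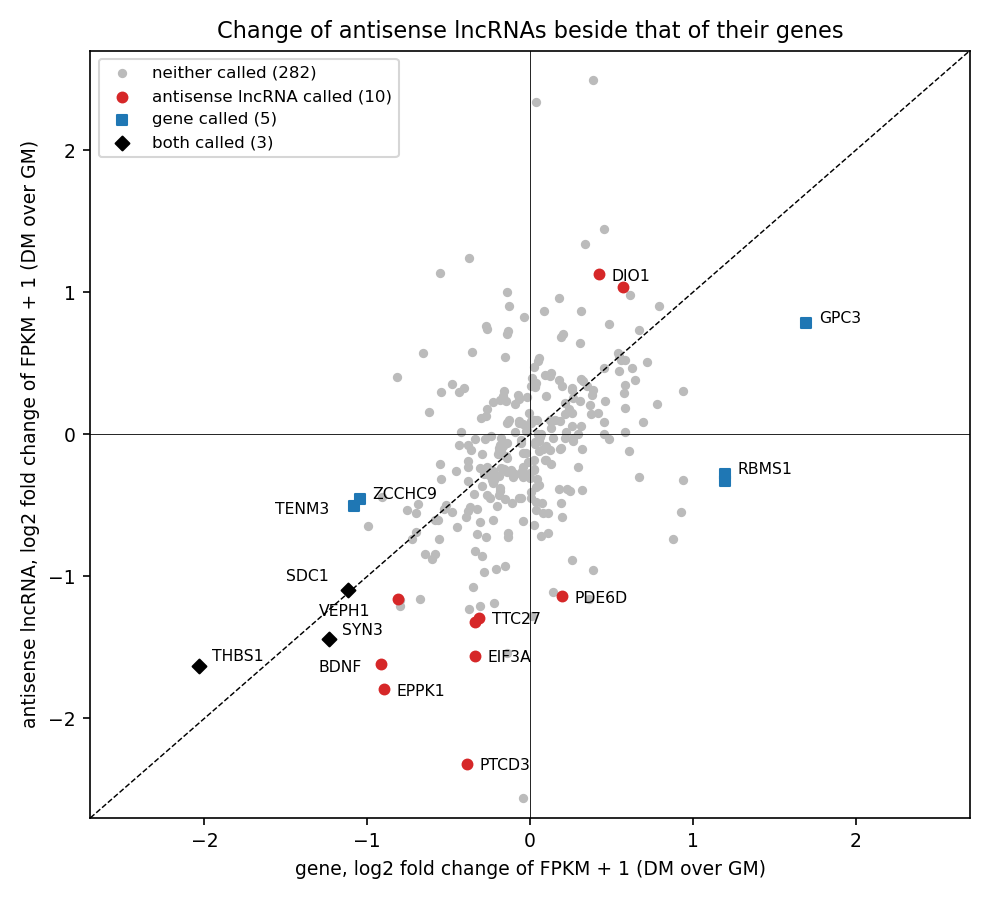
Log2 fold change of FPKM + 1 (DM over GM) of the gene (x axis) and of its antisense lncRNA (y axis) for the 300 tested pairs, 1 point to a pair, with colors and shapes for what was called and a dashed line where both change equally. In 10 pairs only the antisense lncRNA was called, in 5 only the gene and in 3 both, and PTCD3 lies far below the line.

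In level, antisense lncRNAs were mostly below their genes, as FPKM scaled by length. They were below the gene in all 6 libraries in 220 of the 300 pairs, above it in all 6 in 20, and mixed in 60. The median level was 31.5% of the gene (quartiles 12.6% and 63.9%). The highest of all was MSTRG.13257.1, opposite DKC1, the pseudouridine synthase of small nucleolar ribonucleoproteins, with 212, 238 and 246 FPKM in GM and 286, 360 and 318 FPKM in DM. DKC1 itself was at 7.93, 8.58 and 7.60 FPKM in GM and 4.75, 36.4 and 7.79 FPKM in DM, so its DM_2 library stood apart. The RefSeq table of the other assembly lists 5 snoRNA genes over the span of DKC1. It also lists a snoRNA gene over PTCD3, and a pair of snoRNA genes with NANOS1 over EIF3A. Of the 319 gene names found in that table, 135 (42.3%) had another gene over their span, and the table gives no strand. Among the 18 found names with a called antisense lncRNA, 10 had another gene over their span. They include CEMIP and LOC106043342, which overlap each other. Also among them are VEPH1 (with PTX3), PDE6D (with COPS7B and a lncRNA gene), LOC106031151 (with IFT81) and LOC106029474 (with TBRG1). The antisense lncRNA of ZFP36L1, a protein that speeds the decay of mRNA, had 177, 188 and 132 FPKM in GM and 95.5, 106 and 128 FPKM in DM. Those of LOC106045096, LOC106047719, ATF4 and HSPG2 made up the other 4 of the 6 highest, and none of the 6 was called. For LOC106047719, a tubulin alpha gene, the transcript MSTRG.26657.3 had 29.8 FPKM in DM_2 and 86.3 to 112 FPKM in the other libraries.

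**Figure D4:**
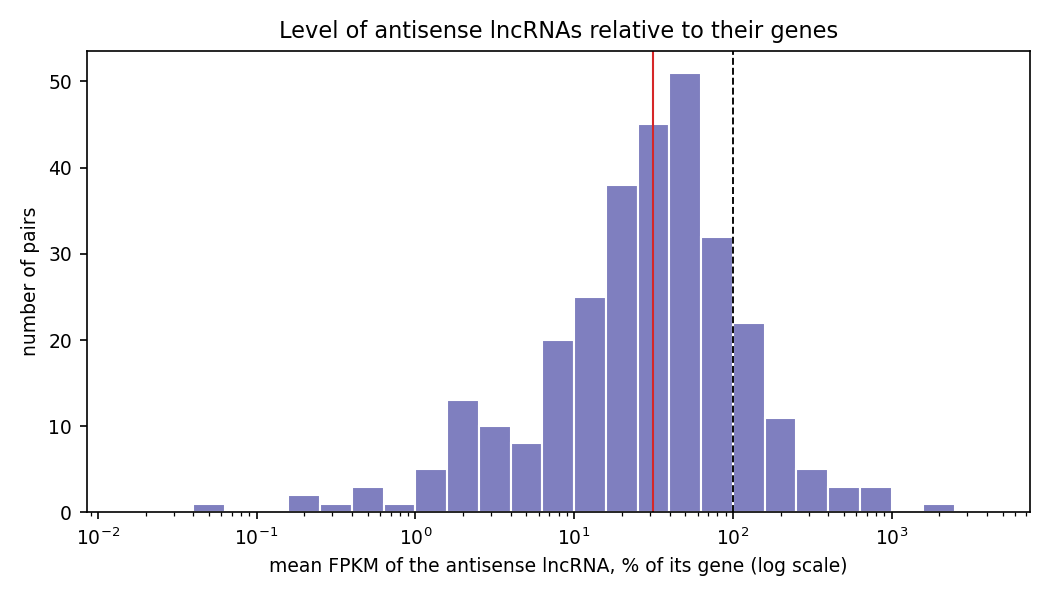
Number of pairs (y axis) by the mean FPKM of the antisense lncRNA in percent of that of its gene (x axis, log scale) for the 300 tested pairs. The dashed line marks equal levels and the red line the median of 31.5%.

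The gene lists were described by counts only. Of 25 listed myogenic regulators, 16 were tested as genes and 2 had an antisense lncRNA. Of the 16, 5 were down-regulated and 0 up-regulated, against 1.84% and 2.18% of all tested genes. The antisense lncRNA of TCF4, an E protein that pairs with myogenic factors, had 9.59, 6.18 and 5.97 FPKM in GM and 4.60, 3.41 and 2.74 FPKM in DM, without overlap, and its log2 fold change of -0.84 did not pass the test (limma adjusted p = 0.077). That of SIX4, a homeobox factor, had a log2 fold change of -0.25. Of 34 tested sarcomere genes, 8 were up-regulated and 1 down-regulated, against 2.18% and 1.84% of all tested genes. Of the 4 antisense lncRNAs opposite TTN and NEB, 0 were called by limma and 1 had an unadjusted p under 0.05, against 2.01% and 25.8% of all tested lncRNAs, and 4 transcripts are too few to read a difference from. The antisense lncRNA of TTN, the spring protein of the sarcomere, had 11.7, 8.23 and 6.99 FPKM in GM and 6.78, 4.96 and 3.52 FPKM in DM, below every GM value in each DM library. Those of NEB differed by library, and MSTRG.25538.1 had 8.43 FPKM in DM_1 against 1.07 to 2.03 FPKM in the other 5.

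Of 31 tested matrix genes, 9 were up-regulated and 4 down-regulated, against 2.18% and 1.84% of all tested genes. Of 6 tested antisense lncRNAs opposite them 1 was called, at THBS1, against 2.01% of all tested lncRNAs. The antisense lncRNA of COL12A1 had 36.2, 27.7 and 27.3 FPKM in GM and 20.2, 11.4 and 9.25 FPKM in DM, without overlap. Its log2 fold change of -1.16 missed the test (limma adjusted p = 0.059), and COL12A1 itself had -0.68. Of 28 tested cell cycle genes, 2 were up-regulated and 2 down-regulated, against the same 2.18% and 1.84%. Neither the antisense lncRNA of CCNA2 (log2 fold change -0.36) nor that of MKI67 (-0.02) was called. Of 26 tested genes that handle double-stranded RNA or degrade RNA, 0 were called by limma, against 4.02% of all tested genes. Of the 26, 9 had an unadjusted p under 0.05, where 42.5% of all tested genes did. AGO2, the effector of RNA interference, was the only one with an antisense lncRNA, at 6.10, 5.63 and 6.01 FPKM in GM and 3.84, 3.61 and 4.26 FPKM in DM (log2 fold change -0.50, limma adjusted p = 0.085). AGO2 itself had a log2 fold change of -0.51.

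A further 12 antisense lncRNAs had an adjusted p under 0.05 but stayed short of the fold limit, which made 38 in all (14 higher and 24 lower in DM), against 3.62% of all tested lncRNAs. Chosen after their values were seen, 3 of the higher ones are given here. That of TMEM182, a membrane protein of muscle, had 9.58, 10.6 and 9.15 FPKM in GM and 19.4, 19.1 and 18.8 FPKM in DM, and TMEM182 had 4.32, 4.49 and 3.80 FPKM in GM and 8.37, 7.35 and 8.26 FPKM in DM. Both were higher in every DM library, with log2 fold changes of 0.90 and 0.79. Those of THADA and MBP had log2 fold changes of 0.87 and 0.98.

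Single libraries decided several values, and the transcripts named here were chosen after their values were seen. In 15 antisense lncRNAs with a mean of at least 2 FPKM, at least 1 library lay under 0.1 of the median of its stage, and 1 of the 15, at PTCD3, was called. The antisense lncRNA of E2F5, a cell cycle transcription factor, had 15.6 and 21.5 FPKM in GM_1 and GM_2 but 0.223 FPKM in GM_3, against 16.7 to 17.7 FPKM in DM. That of PKM, a glycolytic enzyme, had 53.0 FPKM in DM_3 and 2.29 FPKM in DM_1, and was listed at 0.0001 in the other 4 libraries.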

How the data were processed

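Per the labels and the methods, RNA of 3 GM and 3 DM cultures was prepared with a stranded total RNA kit, and the authors trimmed and mapped the reads, used StringTie for the assembly and classed the transcripts by their position to known genes. The authors deposited FPKM values for 14283 rows of genes and 14993 lncRNA transcripts, with 0.0001 in place of 0. Each table also holds the authors' own comparison, which per the file headers consists of a ratio (fold), log2 of that ratio, p-values and q-values, and these were not used. All 6 libraries were used, and 0 columns of per-sample values were left out. The mapper is named differently in the labels and the methods.

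Because the values were FPKM and not counts, limma 3.58.1 in R 4.3.3 was used in place of the authors' edgeR. log2(FPKM + 1) was fitted (lmFit, eBayes with a trend) over the 12988 lncRNAs and 10381 genes whose mean over the libraries reached 0.5 FPKM. The same was done for the difference of lncRNA and gene within a library, with the gene matched by exact symbol. The fit was also run on simulated data, with changes set directly on the tested log2 scale. That run could not show how the pseudocount affects the changes. With 3 libraries for each stage, which limits the precision, an exact permutation test would not go below p = 0.1 and none was run. Intervals are 95% intervals of limma. Figures were drawn with Python 3.11.15 and matplotlib 3.10.9.

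The members and the gene lists were chosen with earlier results of these data known. Named were up to 8 antisense lncRNAs called in each direction with the smallest adjusted p, pairs with a called difference, up to 8 whose gene was called, the 6 of highest mean FPKM, and up to 3 opposite the genes of each list. Alternatives were no filter, a filter at 2 FPKM, a pseudocount of 0.1, quantile normalization, a common median, the replicate block, each library left out, no fold limit, unadjusted p, transcripts of a locus summed, and values above 0.0001 in all 6 libraries. Sequences were not used here.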

Additional observations from a re-analysis of the deposited data

How the results depend on the processing

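None of the 26 called antisense lncRNAs changed sign under the settings run on single transcripts. Of the 26, 24 were still called without a filter and with a pseudocount of 0.1, 19 with the filter at 2 FPKM, 21 after quantile normalization or scaling to a common median, and 22 where values above 0.0001 were required in all 6 libraries. The filter at 2 FPKM and the requirement above 0.0001 take transcripts out of the test. A transcript taken out could not be called, so its loss is not a failed retest. Summed by locus, 20 loci were called, but not the same set. The locus of SLC4A7, with 0 called transcripts, was among them. No locus opposite LOC106047198, which had 4 called transcripts, was called. Leaving out each library in turn gave 12 to 27 called antisense lncRNAs, 8 to 11 called partner genes and 0 to 0 called pairs.

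The called partner genes numbered 20 with a pseudocount of 0.1 and 99 with no limit on the fold, against 9. The called pairs, 0 in the analysis as reported, numbered 2 with the filter at 2 FPKM, 1 with a common median (PTCD3), 10 at an unadjusted p with the fold limit, and 4 with joined rows added. By construction, the filter at 2 FPKM makes fewer tests, and dropping the fold limit or the adjustment makes looser ones. The common median and the pseudocount kept the number of tests and the thresholds. The joined rows raised the tested pairs of all classes from 4771 to 5075. The cause of the changed counts was not tested.

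Replicate numbers were not taken as pairs in the main fit, and whether they pair the cultures was not established. Deviations of libraries with the same number correlated at 0.028 to 0.094 in the lncRNA table, where 5 of 6 libraries were closest to their own number. In the gene table the correlations were -0.0024 to 0.034, and 3 of 6 libraries were closest to their own number. With the replicate block, 11 antisense lncRNAs, 8 partner genes and 0 pairs were called.

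With a pseudocount of 0.1 the values that changed sign were the difference for SYN3 (0.0093), SDC1 (-0.34) and EPPK1 (0.028), and the antisense lncRNAs of MKI67 (0.48) and NEB (MSTRG.25539.1, -0.0050). With a common median they were the difference for SYN3 (0.0034) and the antisense lncRNAs of MKI67 (0.21) and HSPG2 (0.084), and after quantile normalization that of MKI67 (0.14). With 1 library left out, the ranges of log2 values that crossed 0 were -0.060 to 0.16 for the antisense lncRNA of ATF4, -0.50 to 0.29 for that of MKI67, -0.80 to 0.053 for that of ZCCHC9, -0.19 to 0.90 and -0.32 to 0.35 for those of NEB (MSTRG.25538.1 and MSTRG.25539.1), -0.90 to 0.035 for that of LOC106047719 (MSTRG.26657.3), -0.96 to 0.72 for that of RBMS1 (MSTRG.2926.1), and -0.058 to 0.18 for the difference of SDC1.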
